A study of Mus musculus with 4 samples.

Results

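The cells described here are natural killer (NK) cells of the mouse brain at 5 and 14 days after a stroke, read from single-cell RNA sequencing. A barcode was counted as an NK cell when it held at least 200 genes and at most 10% mitochondrial UMIs (unique molecular identifiers, 1 for each captured RNA molecule). It further needed at least 2 UMIs over the NK receptor genes Ncr1, Klrb1c, Klre1 and Klra8, no UMI of Cd3d, Cd3e, Cd3g or Trac, fewer than 3 UMIs over Cd79a, Cd79b and Ms4a1, no Siglech UMI, and at most 2% of its UMIs in a sum of 7 phagocyte genes (C1qa, C1qb, C1qc, Cst3, Ctsb, Lyz2 and Apoe). This left 677 NK cells among 10841 cells, with 104 and 108 in the 2 libraries of day 5 and 234 and 231 in the 2 libraries of day 14. The cells were thus selected on the measured UMIs of these genes, so the levels of those genes are not results, and levels in NK cells are not tested against levels in other cells. Only the change between days is tested between NK and T cells. Where 4 values follow each other below, they stand for day 5 replicate 1, day 5 replicate 2, day 14 replicate 1 and day 14 replicate 2.

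NK cells are innate lymphocytes that kill by releasing perforin and granzymes from granules and that signal through interferon gamma and chemokines. In the mouse they mature from CD27-bearing cells to cells that carry CD11b (encoded by Itgam) and KLRG1, and the mature cells leave lymphoid tissue through the sphingosine phosphate receptor S1PR5. Tissue-type NK cells and the related type 1 innate lymphoid cells carry CD49a (encoded by Itga1), and the factor Eomes is used to separate conventional NK cells from type 1 innate lymphoid cells. Gzmc encodes a granzyme that resting circulating NK cells largely lack.

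All animals were C57/BL6 mice with transient middle cerebral artery occlusion (tMCAO), a temporary closure of a large cerebral vessel. The injured hemispheres were flushed with saline and their CD45-high cells, chiefly leukocytes that entered from blood, were sorted before droplet capture with 3' version 2 chemistry. The 2 groups were 5 and 14 days after tMCAO, with 2 libraries in each. The labels used here give no age, no uninjured group, and no word on whether a library came from 1 mouse or several, so the spread between 2 libraries may be partly technical.

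The 4 libraries held 2308 to 3447 cells after the quality limits and 9288054 to 13610119 UMIs. Depth differed between the days: NK cells had a median of 1470.5, 1183, 2119 and 2957 UMIs, and the smallest barcode held 500, 505, 1180 and 1317 UMIs. The day 5 and day 14 files also differ in layout, and only the day 5 headers name a software version, so any difference in upstream processing and the day itself cannot be told apart. Names of ribosomal protein genes and pseudogenes, whose reads can be assigned to near-identical copies, moved with the day: 77 of 86 ribosomal protein names passed the test as higher on day 14 in NK cells (median log2 change 0.58, and 0.63 in B cells and 0.13 in T cells), as did 28 of 47 Gm-numbered, -ps or -rs names. Rpl9-ps6, at 5.19, 0, 1042 and 961 CPM (counts for each 1e+06 UMIs), had the largest change. Of the windows of 91 bases in its 3' end, 76.1% also occur in Rpl9 or another gene, and such names are left aside below. Pairs of libraries shared 5 to 16 cell barcodes, of which 1 was an NK cell in both.

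The label was checked on genes that had no part in the choice. All 12 NK genes outside the rule were detected in every library, with a summed level of 29423, 24748, 15037 and 14380 CPM. The sum was 1315, 558, 540 and 565 CPM in B cells and 3632, 3580, 1985 and 2936 CPM in T cells of the same libraries. These T and B cells held no UMI of the 4 receptor genes by their own limits, so they were set apart from NK cells in advance. Over all cells after the quality limits the 12 genes were also all detected, at 8106, 7926, 5799 and 6577 CPM. None of 5 mast cell and basophil markers was found in the NK cells. Of 7 markers of type 2 and type 3 innate lymphoid cells 4, 4, 3 and 5 were detected, at a summed 87.2, 114, 101 and 88.7 CPM, with Il17rb and Il23r at 0. Of 5 gamma delta T cell markers 3, 3, 3 and 4 were detected (76.9, 72.3, 105 and 116 CPM), and of 10 T cell markers, 4 of them at 0 by the rule, 3, 2, 5 and 3 (282, 289, 270 and 315 CPM), against 5501 to 5936 CPM in T cells. Conventional dendritic cell markers, which include Cd74 and other MHC class II genes, summed to 5281, 11304, 2130 and 3258 CPM with 6 to 9 of 9 detected, Clec9a and Xcr1 being at 0 in 3 libraries. RNA of phagocytes was present: 8 of 10 microglial genes were detected at a summed 584, 723, 236 and 153 CPM (Sall1 was at 0 and Siglech at 0 by the rule), against 7045, 9450, 2446 and 1589 CPM over all cells. The summed level in NK cells was lower in both day 14 libraries, and its part in the results was not tested.

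NK cells made up 4.15% of cells in day 5 replicate 1 (95% exact binomial interval 3.4 to 5.01) and 3.13% in replicate 2 (2.58 to 3.77). On day 14 they made up 9.07% (7.99 to 10.2) and 10.0% (8.81 to 11.3). Both day 14 shares lay above both day 5 shares, by 5.90 percentage points on average, and the two-sided exact permutation test gave p = 0.33, the smallest value that 2 against 2 libraries allow. The share depends on the sort and on every other cell type, so more NK cells and fewer other cells cannot be told apart. Among NK, T and B cells alone the direction was the reverse, with NK cells at 51.2%, 48.2%, 21.5% and 35.1%. T cells numbered 50, 52, 668 and 350. Near the limits of the rule, 80 NK cells held exactly 2 UMIs of the 4 receptor genes, and Nkg7 was seen in 88.8% and Gzma in 75% of them. Among 102 cells with 1 such UMI, which were left out, these shares were 43.1% and 33.3%. The phagocyte limit had 13 cells just inside it and 11 just outside.

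Of the 5 genes that mark maturation and tissue type, Gzmc rose, Itgam and S1pr5 fell, Eomes was level at a mean of 222 and 219 CPM, and Itga1 was higher on day 14 without passing the test. Across all genes, 336 of 4734 (7.1%) passed edgeR's quasi-likelihood test on summed NK counts at a Benjamini-Hochberg adjusted p below 0.05. Of these, 217 were higher (4.58%) and 119 lower (2.51%) on day 14. The higher calls include 77 ribosomal protein names and 28 Gm-numbered, -ps or -rs names. With such names left out of the test, 207 of 4569 genes passed, 104 higher and 103 lower. The median log2 change of all 4734 genes was 0.002. In 2134 of them (45.1%) the libraries of the days did not overlap, in one direction or the other. This share is the background for each lack of overlap in CPM given below. With day 5 replicate 1 left out 125 genes passed, and with day 5 replicate 2 left out 155. CPM below are scaled to TMM-normalised library sizes, and each log2 change is day 14 over day 5 with its standard error.

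**Figure D1:**
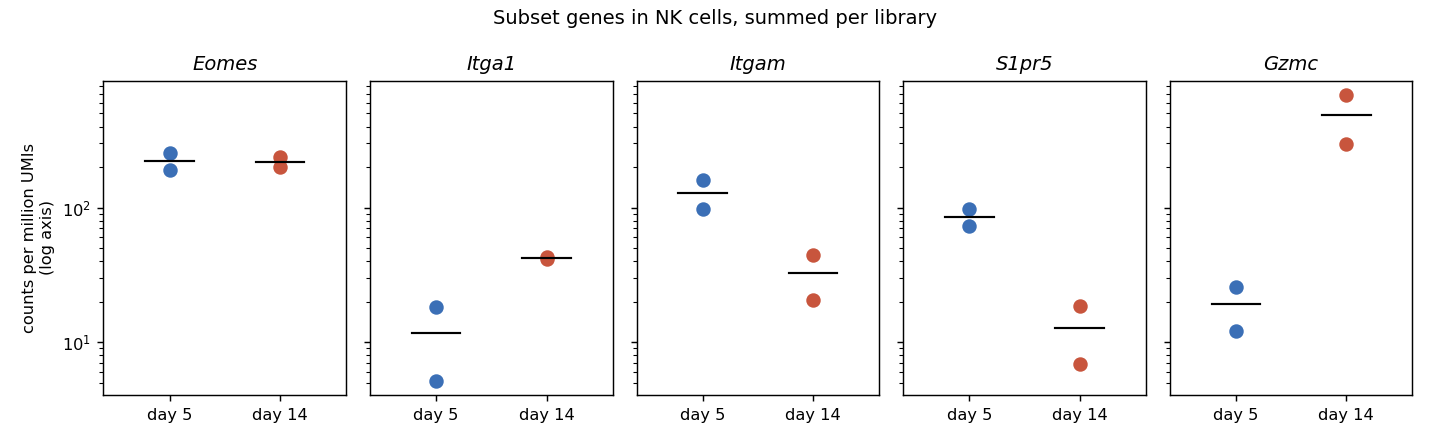
Level of Eomes, Itga1, Itgam, S1pr5 and Gzmc in NK cells (CPM, log axis) in each of the 4 libraries, with day 5 and day 14 shown apart; each point is 1 library and the bar is the mean of 2. Both day 14 libraries lie above both day 5 libraries for Gzmc and Itga1 and below them for Itgam and S1pr5, while the days overlap for Eomes.

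Eomes was at 254, 189, 238 and 199 CPM, with means of 222 ± 45.7 on day 5 and 219 ± 27.6 on day 14 (SD, n = 2 each). The libraries of the days overlapped, and the log2 change was -0.04 ± 0.23 (edgeR adjusted p = 0.966). Itga1, the collagen-binding integrin of tissue-type cells, was at 5.19, 18.3, 42.8 and 41.2 CPM. Both day 14 libraries were above day 5, at a log2 change of 1.87 ± 0.64 that missed the threshold (edgeR adjusted p = 0.0515).

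S1pr5, the exit receptor, was at 72.6, 97.8, 18.6 and 6.87 CPM. The days did not overlap, as in 45.1% of all genes, and the log2 level fell by 2.79 ± 0.47 (edgeR adjusted p = 6.72e-07). Itgam, the CD11b integrin of mature NK cells and of myeloid cells, was at 161, 97.8, 44.6 and 20.6 CPM. It fell by 2.06 ± 0.36 on the log2 scale (edgeR adjusted p = 1.46e-06), again with no overlap. A part of myeloid RNA in the Itgam level was not tested. Of the 91-base windows in the 3' end of Itgam, 24.4% also occur in Gm49368, so its reads could have been split.

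Gzmc was at 25.9, 12.2, 298 and 682 CPM. Both day 14 libraries stood far above both day 5 libraries, and the log2 change was 4.64 ± 0.36 (edgeR adjusted p = 1.16e-27). These are summed levels, so that fewer cells with the RNA and less RNA in each cell cannot be told apart without the counts by cell, which follow.

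Cell by cell, after thinning each NK cell to 1000 UMIs and leaving out shallower cells (92 of 104, 80 of 108 and all day 14 cells were kept), S1pr5 was expected in 10.3%, 10.5%, 1.92% and 0.667% of NK cells. These thinned shares are expected values, the chance that a cell keeps a UMI averaged over cells, and need not be whole cells. Without thinning the observed shares were 13.5%, 13.9%, 3.85% and 2.16%. In B cells, which should lack it, no S1pr5 UMI was seen. Gzmc was expected in 1.94%, 0.827%, 5.87% and 11.8% of thinned NK cells, and seen in 2.88%, 1.85%, 11.5% and 19.5% without thinning, again with none in B cells. Itga1 was expected in 0.373%, 1.75%, 3.33% and 3.58% after thinning and seen in 0.962%, 2.78%, 7.69% and 11.3% before, and in 1 random draw of thinned cells no day 5 cell of 172 held it. For these 3 genes the days did not overlap on either scale, although for Itga1 this depended on the depth chosen, as given below.

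Itgam was expected in 15.7%, 7.42%, 4.71% and 1.94% of thinned NK cells. The shares were 0, 0.547%, 1.17% and 0.808% in thinned B cells and 0, 3.08%, 0.476% and 0.583% in thinned T cells. Eomes was expected in 22.3%, 15.4%, 21.1% and 18.1% after thinning, with the days overlapping, although the unthinned shares of 32.7%, 23.1%, 39.3% and 43.7% do not overlap. With depth made equal, the mean expected share with an Eomes UMI differed by 0.779 points between the days (exact permutation p = 1). The other differences were -9.10 points for S1pr5, -8.23 for Itgam, 7.43 for Gzmc and 2.39 for Itga1, each at the smallest possible p of 0.33 over 5 genes tested. With cells thinned to 1500 UMIs the Itga1 difference was 1.80 points and its permutation p was above 0.33. The Itga1 p was also above 0.33 with barcodes of at least 1317 UMIs only. S1pr5, Itgam and Gzmc stayed at 0.33 in both settings.

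**Figure D2:**
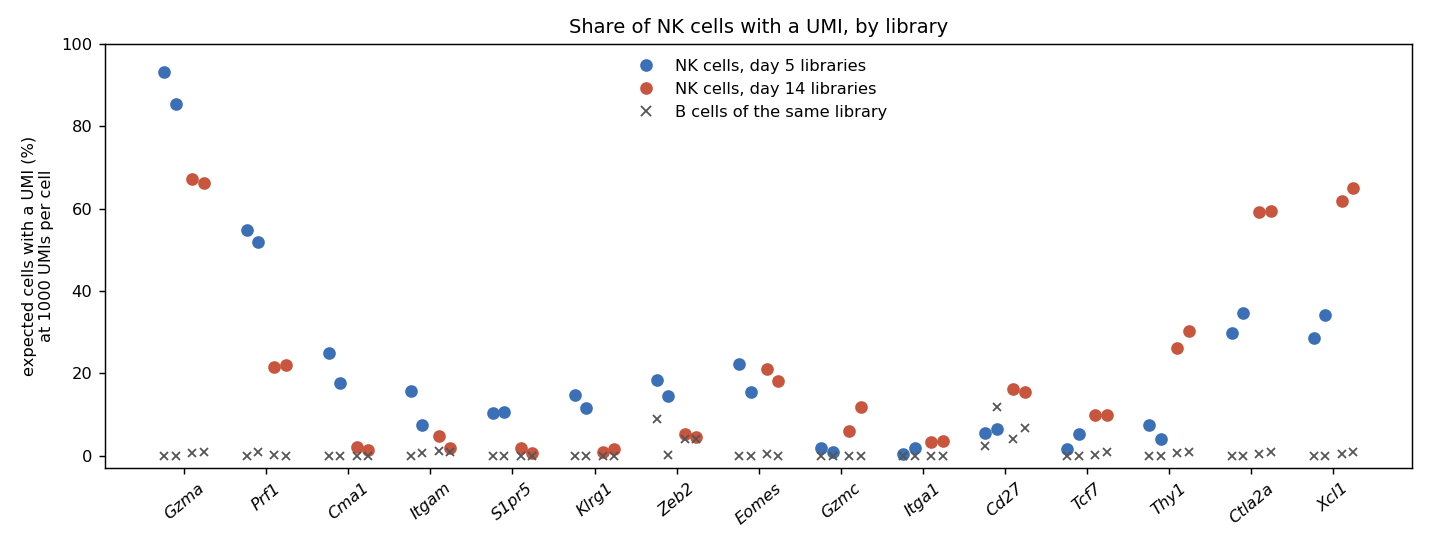
Expected share of NK cells with at least 1 UMI (%) of 15 genes after thinning every cell to 1000 UMIs, with 1 circle for each library and crosses for B cells of the same library. S1pr5 drops from 10.3% and 10.5% on day 5 to 1.92% and 0.667% on day 14, Gzmc goes from 1.94% and 0.827% to 5.87% and 11.8%, and Eomes overlaps between the days.

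The loss of S1pr5 and Itgam was part of a wider change in genes of mature circulating NK cells. Of 12 such genes 11 could be tested, 8 of them fell, S1pr5 and Itgam included, and none rose. Of all genes tested, 2.51% fell and 4.58% rose. The median log2 change of the list was -1.61 where all genes had 0.002. This list, like the others, was chosen with earlier results of these data known. In T cells of the same libraries the median over 9 of these genes was -0.02. In NK cells DESeq2 called 3 of the 11 as lower. It gave 4 no adjusted p, namely S1pr5, Itgam, Klrg1 and Cx3cr1. Cma1, a chymase expressed by mature mouse NK cells, was at 228, 293, 16.7 and 11 CPM. It fell by 4.23 ± 0.34 on the log2 scale (edgeR adjusted p = 5.66e-26). Every day 5 library was above both day 14 libraries, and 45.1% of all genes separated in one direction or the other. Klrg1, the inhibitory receptor of terminally mature cells, was at 150, 116, 9.30 and 23.3 CPM and fell by 2.94 ± 0.40 (adjusted p = 3.82e-10).

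A pair of transcription factors of mature lymphocytes fell with them. Klf2, which drives expression of exit receptors, was at 1276, 1069, 547 and 235 CPM, with day 14 replicate 2 the lowest. It fell by 1.61 ± 0.18 on the log2 scale (edgeR adjusted p = 3.17e-14). DESeq2 gave it an adjusted p of 0.0783. Zeb2, needed for the last steps of NK maturation, was at 239, 153, 57.7 and 56.3 CPM and fell by 1.80 ± 0.28 (adjusted p = 7.55e-08). After thinning, 8.87%, 0.137%, 3.94% and 4.14% of B cells were expected to hold a Zeb2 UMI, close to the 5.21% and 4.61% of NK cells on day 14, whereas on day 5 it was expected in 18.5% and 14.6% of NK cells.

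Ly6c2 (560, 599, 234 and 371 CPM, log2 change -0.92 ± 0.19, edgeR adjusted p = 0.000112) and Cx3cr1, the fractalkine receptor (41.5, 73.3, 22.3 and 15.1 CPM, -1.61 ± 0.49, adjusted p = 0.0198), complete the 8. Without day 5 replicate 2 the call of Ly6c2 was lost (adjusted p = 0.0536), and 6 genes of the list fell. Cx3cr1 is also a microglial gene, counted in the microglial sum, which was lower on day 14 too. A part of microglial RNA in the Cx3cr1 level was not tested. The call of Cx3cr1 was lost without day 5 replicate 2 and without either day 14 library. The 3 members that did not pass were Tbx21, the T-bet factor, at 150, 110, 104 and 92.0 CPM (adjusted p = 0.515), Irf8 with a log2 change of -0.42 (adjusted p = 0.148) and Spn with -0.75 (adjusted p = 0.0514). Neither of the factors that define the lineage, T-bet and Eomes, thus had a transcript past the threshold.

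Genes of less mature NK cells moved the other way. Of 11 such genes 9 could be tested, 8 rose and none fell, where 4.58% of all genes rose. DESeq2 called 6 of the 9 as higher and gave 1 no adjusted p. The median log2 change was 1.39 in NK cells, 0.42 over 10 genes in T cells and 0.67 over 3 genes in B cells. Cd27, the receptor of the earlier stage, was at 62.2, 67.2, 169 and 170 CPM, rising by 1.39 ± 0.31 on the log2 scale (edgeR adjusted p = 0.000265). A Cd27 UMI was expected in 5.50%, 6.40%, 16.1% and 15.3% of thinned NK cells, beside 2.37%, 11.9%, 3.95% and 6.64% of thinned B cells, so that the NK share lay above the B cell share in 3 of the 4 libraries and below it in day 5 replicate 2. Tcf7, a factor of early lymphocytes, was at 31.1, 48.9, 113 and 114 CPM and rose by 1.52 ± 0.38 (adjusted p = 0.00192). In both genes the 2 day 14 libraries were nearly equal and above day 5, where 45.1% of all genes separated in one direction or the other. Without day 5 replicate 1 the calls of Cd27 (adjusted p = 0.086), Tcf7 (0.252) and Cd7 (0.719) were lost, and 5 genes of the list rose. That of Tcf7 was also lost after thinning (0.157).

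Thy1, a surface protein of T cells and of some NK cells and innate lymphoid cells, was at 130, 55.0, 383 and 496 CPM, with a log2 change of 2.21 ± 0.26 (edgeR adjusted p = 5.76e-14). The expected share of thinned cells with a Thy1 UMI went from 7.45% and 3.94% to 26.1% and 30.2%. Emb, which encodes embigin, was at 140, 208, 612 and 531 CPM (1.73 ± 0.22, adjusted p = 1.88e-11). Ltb, the lymphotoxin beta ligand, was at 130, 275, 664 and 531 CPM (1.59 ± 0.22, adjusted p = 4.74e-10). Both day 14 libraries lay above both day 5 libraries in all 3 genes, where 45.1% of all genes separated in one direction or the other. The ratio between the day 5 replicates of Thy1 and Ltb was larger than that between the day 14 replicates.

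Xcl1, the chemokine that draws cross-presenting dendritic cells, was at 1125, 782, 1797 and 2066 CPM (1.01 ± 0.16, edgeR adjusted p = 3.61e-08). The expected share of thinned NK cells with an Xcl1 UMI was 28.4%, 34.1%, 61.8% and 65.0%. Ctla2a, a cathepsin inhibitor, was at 384, 489, 1079 and 1053 CPM (1.29 ± 0.18, adjusted p = 1.16e-09), although 16.1% of its 3' windows also occur in Ctla2b. Cd7 rose least of the 8, by 0.56 ± 0.18 (adjusted p = 0.0363), and was also lost without day 5 replicate 2 (0.121) and day 14 replicate 1 (0.0729).

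**Figure D3:**
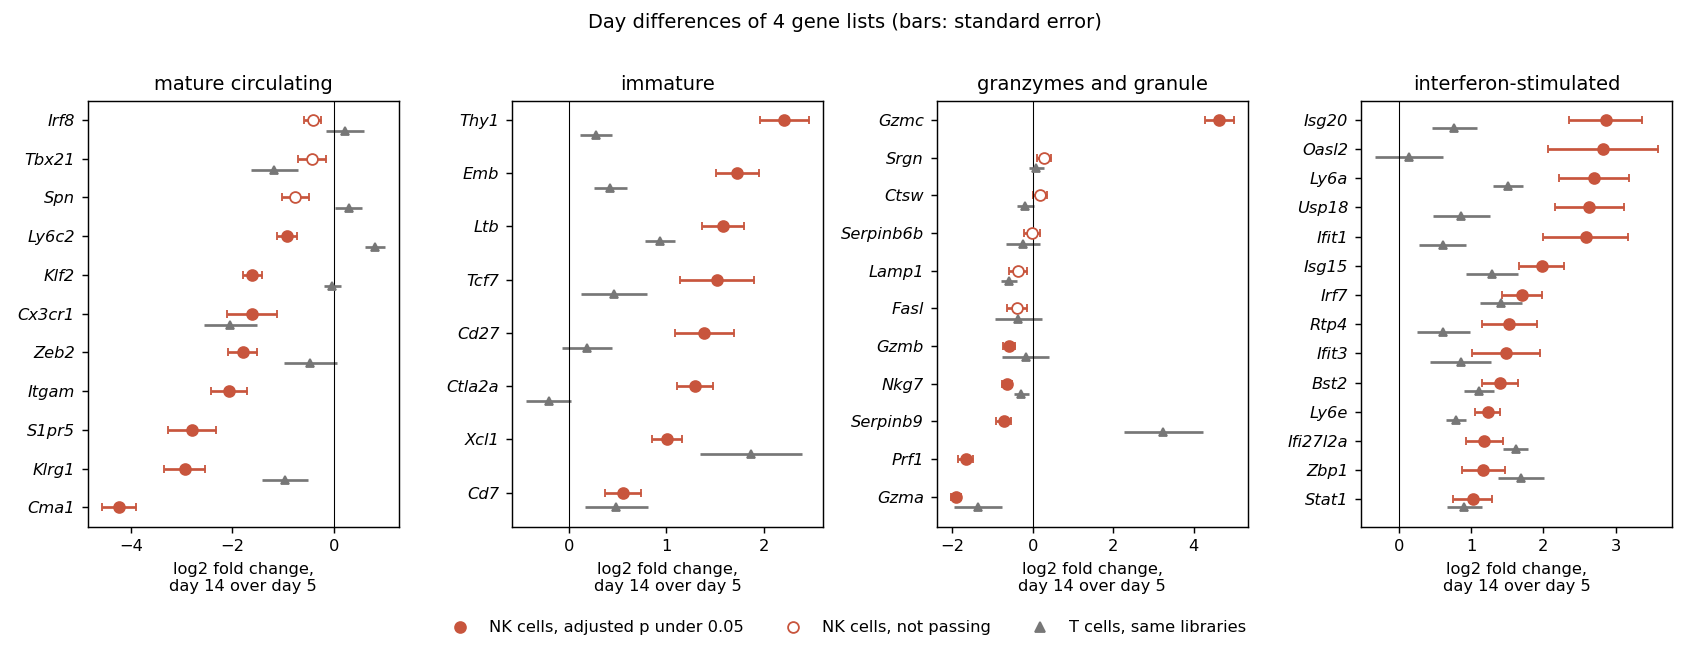
Log2 change between days (day 14 over day 5, edgeR, with standard error) of genes of the mature, immature, granule and interferon lists in NK cells (circles, filled where the adjusted p was below 0.05) and in T cells of the same libraries (triangles). The mature list lies left of 0 (8 of 11 lower in the test). The immature list lies right of it (8 of the 9 tested are drawn, the 8 that were higher in the test). Of all genes, 2.51% were lower and 4.58% higher. Gzmc stands alone on the right of the granule list.

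Cells with Cd27 UMIs and no Itgam UMI numbered 8, 8, 61 and 79, which is 7.69%, 7.41%, 26.1% and 34.2% of NK cells. Cells with Itgam and no Cd27 numbered 22, 14, 14 and 10, or 21.2%, 13%, 5.98% and 4.33%. The order of these 2 sets was opposite on the 2 days in every library. Only 3, 2, 7 and 3 cells held both, and most NK cells held neither, so the sets describe detected RNA and not whole stages. These shares are not thinned, and day 14 cells are deeper.

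The list of tissue-type NK and type 1 innate lymphoid genes, which includes Itga1, gave no call. Of 15 genes 9 could be tested, 0 passed edgeR's test (2 had an unadjusted p below 0.05, and DESeq2 also called 0, with no adjusted p for 6), and the median log2 change was 0.38. Cxcr6, a homing receptor of tissue-resident lymphocytes, was at 25.9, 48.9, 44.6 and 48.1 CPM, overlapping between the days. Rgs1 was at 379, 562, 673 and 616 CPM with a log2 change of 0.46 (adjusted p = 0.145). Cd69, a retention and activation marker, was at 124, 55.0, 98.6 and 92.0 CPM. Tnfsf10, the TRAIL ligand used as a marker of type 1 innate lymphoid cells, was below the count filter and was expected in 0.437%, 0, 1.81% and 2.71% of thinned NK cells. Without that filter it was the 1 gene of the list that passed, with a log2 change of 3.34 ± 0.95 (edgeR adjusted p = 0.0212), and it passed as well when ribosomal, Gm-numbered and pseudogene names were left out (adjusted p = 0.0412).

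The granule genes split. Of 17 listed genes 11 could be tested, 5 fell, and Gzmc alone rose, with a median of -0.39. Of all genes, 2.51% fell and 4.58% rose. DESeq2 called 3 of the 11 as lower and 1 as higher. Gzma, the most abundant granzyme, was at 12074, 8623, 2701 and 2787 CPM and fell by 1.92 ± 0.12 on the log2 scale (edgeR adjusted p = 1.36e-36). It was expected in 93.1%, 85.4%, 67.2% and 66.2% of thinned NK cells, and cells that held it had a median of 21, 13.5, 5.5 and 8 UMIs before thinning. Both the share of cells and the UMIs per positive cell were thus lower on day 14, although day 14 cells were sequenced more deeply.

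Prf1, which encodes the pore-forming perforin, was at 825, 837, 247 and 273 CPM and fell by 1.67 ± 0.19 (edgeR adjusted p = 8.14e-15). The day 5 replicates differed far less from each other than from either day 14 library. Gzmb was at 1499, 1387, 722 and 1188 CPM and fell by 0.59 ± 0.16, less than Gzma or Prf1 (adjusted p = 0.00513). Nkg7, a granule membrane protein, was at 4896, 4376, 2950 and 2986 CPM (-0.64 ± 0.13, adjusted p = 4.66e-05), and Serpinb9, the inhibitor that shields killer cells from granzyme B, at 529, 562, 301 and 358 CPM (-0.72 ± 0.19, adjusted p = 0.00451). Ctsw, Lamp1, Serpinb6b, Srgn and Fasl did not pass. The call of Serpinb9 was lost without either day 5 library or day 14 replicate 1 (adjusted p 0.0579 to 0.231), and that of Nkg7 without day 5 replicate 1 (0.185). Gzmb was lost without either day 5 library (0.368 and 0.142), without day 14 replicate 1 (0.526) and with DESeq2 (0.167), so that 2 genes of the list fell without day 5 replicate 1 and 3 without day 5 replicate 2 or day 14 replicate 1.

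Of the genes that changed, 3 lie in 1 cluster of granule proteases on chromosome 14 of GRCm38. Cma1 (chr14:55941451-55944675) fell, Gzmb (chr14:56258838-56262260) fell with a call that did not hold without either day 5 library or day 14 replicate 1, and Gzmc (chr14:56231441-56234656) rose, all on the minus strand. The start of Gzmc is 27.6 kb from that of Gzmb and 290.0 kb from that of Cma1. Their promoters are shown because they set the gene that rose beside neighbours that did not. The sequences are from RefSeq GRCm38.p6, 250 bases before to 50 bases after the start, 5′ to 3′ on the gene's strand, at chr14:55944626-55944925 for Cma1, chr14:56262285-56262584 for Gzmb and chr14:56234608-56234907 for Gzmc. Capitals mark the letters TGTGGT or ACCACA, the core bound by RUNX factors on either strand.
Cma1: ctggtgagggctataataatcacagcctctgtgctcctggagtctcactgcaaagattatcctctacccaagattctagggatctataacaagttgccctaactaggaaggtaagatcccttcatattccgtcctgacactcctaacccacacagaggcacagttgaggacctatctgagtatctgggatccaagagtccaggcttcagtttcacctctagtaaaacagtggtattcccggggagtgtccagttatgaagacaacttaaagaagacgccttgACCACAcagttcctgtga
Gzmb: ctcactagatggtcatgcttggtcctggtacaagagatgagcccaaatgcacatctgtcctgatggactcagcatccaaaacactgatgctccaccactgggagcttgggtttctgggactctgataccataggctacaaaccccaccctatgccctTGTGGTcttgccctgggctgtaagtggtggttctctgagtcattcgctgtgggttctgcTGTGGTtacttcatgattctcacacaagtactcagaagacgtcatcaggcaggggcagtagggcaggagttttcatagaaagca
Gzmc: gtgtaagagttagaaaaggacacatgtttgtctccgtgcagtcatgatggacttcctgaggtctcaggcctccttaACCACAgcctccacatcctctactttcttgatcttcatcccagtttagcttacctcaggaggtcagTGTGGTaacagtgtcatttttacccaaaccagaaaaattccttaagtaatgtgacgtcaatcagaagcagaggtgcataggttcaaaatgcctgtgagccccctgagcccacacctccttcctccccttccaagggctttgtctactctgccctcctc

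The RUNX letters occurred 1 time in the Cma1 promoter and 2 times each in those of Gzmb and Gzmc, and 16.8% of 32851 mouse promoters of this length hold them. The T-box letters GGTGTGA or TCACACC, the core bound by Eomes and T-bet, occurred in none of the 3, and in 3.98% of all promoters. A match is a description of the letters only. Other proteases of the cluster were nearly silent in NK cells: Gzmd, Gzme, Gzmg, Gzmn, Ctsg, Mcpt4 and Mcpt8 had 0 UMIs in all 4 libraries, and Gzmf had 1 UMI. Cma1 itself was carried by 44, 48, 9 and 8 UMIs and Gzmb by 289, 227, 388 and 865.

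Gzmc RNA was concentrated in few cells. On day 14, 27 of 234 and 45 of 231 NK cells held any of its 160 and 497 UMIs, and on day 5 3 of 104 and 2 of 108 held 5 and 2 UMIs. The most in 1 cell was 3, 1, 62 and 82 UMIs. The 10 cells with the most Gzmc held 88.1% of all Gzmc UMIs in day 14 replicate 1 and 78.7% in replicate 2. Xcl1, by contrast, was spread over 185 and 199 cells on day 14, with 23.6% and 32.2% of its UMIs in its top 10 cells. On day 5 it was held by 39 and 36 cells, and the top 10 held 77.4% and 62.5%.

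**Figure D4:**
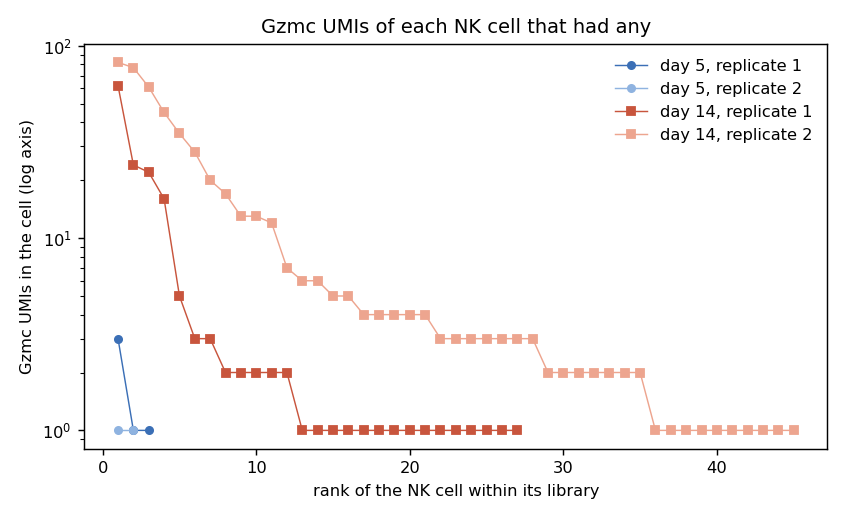
Gzmc UMIs per NK cell (log axis) for each cell that held any, ranked from most to fewest within each of the 4 libraries. On day 14 the top cell holds 62 UMIs in replicate 1 and 82 in replicate 2, and 10 cells hold 88.1% and 78.7% of the Gzmc UMIs, while day 5 has 3 and 2 such cells.

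The cells with at least 5 Gzmc UMIs, a limit set after the values were seen, numbered 5 and 16 on day 14 and are described without a test. They were deeper than the 207 and 186 cells with no Gzmc, with a median of 4307 and 4805 UMIs against 2017 and 2699.5. Values in the next sentences are CPM without TMM scaling, in high cells against cells with none, first for replicate 1 and then for replicate 2. Gzma was at 147 against 2687 and at 758 against 2946. Ccl5 was at 366 against 6471 and at 265 against 4215. In both libraries the Gzmc-high cells were thus low in Gzma and Ccl5.

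Eomes was also lower in them, at 73.3 against 247 and 75.8 against 198, as were Klf2, at 36.6 against 556 and 50.5 against 248, and the Ly49 receptor gene Klra4, at 147 against 841 and 265 against 630. Tbx21 was not, at 147 against 98.2 and 126 against 80.0. Xcl1 was higher, at 2052 against 1407 and 2540 against 1576, and Il2rb, the shared receptor chain for IL-2 and IL-15, was at 1136 against 886 and 1251 against 1042. An Itga1 UMI was seen in 1 of 5 and 6 of 16 of the high cells and in 13 of 207 and 15 of 186 of the others. No high cell held S1pr5. An Itgam UMI was seen in 0 of 5 and 3 of 16 of the high cells, against 20 of 207 and 10 of 186 of the others.

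Ifi27l2a, an interferon-induced gene, was at 1393 against 117 and 745 against 220, and Capg, an actin-capping protein also common in phagocytes, at 623 against 117 and 556 against 173. Lyz2, a phagocyte gene of the rule, was at 2748 against 329 and 1162 against 515 in the same cells, and its part in these values was not tested. With 5 cells in replicate 1, each of these levels rests on few molecules.

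**Figure D5:**
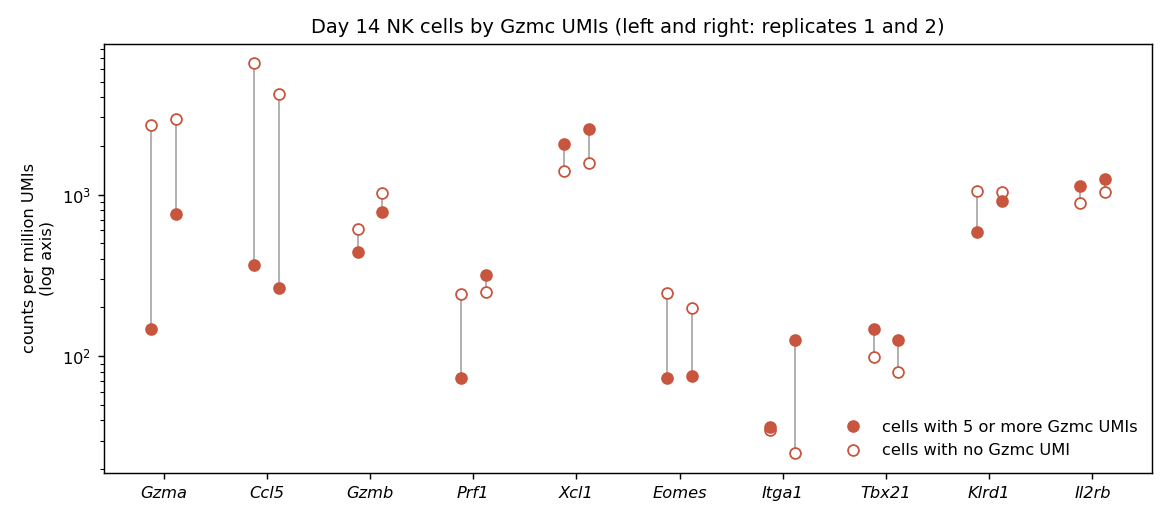
Level (CPM without TMM scaling, log axis) of 10 genes in day 14 NK cells with at least 5 Gzmc UMIs (filled) and with none (open), joined by a line within each library. Gzma, Ccl5 and Eomes lie lower in the 5 and 16 high cells in both libraries, and Xcl1 and Il2rb higher.

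A pair of cell sets was formed from the marker genes: a tissue-type set with a UMI of Itga1 or Gzmc and none of S1pr5 or Itgam, and a circulating-type set with the reverse. The tissue-type set held 3, 5, 37 and 54 cells, or 2.88%, 4.63%, 15.8% and 23.4% of NK cells. The circulating-type set held 35, 28, 25 and 11 cells, or 33.7%, 25.9%, 10.7% and 4.76%. The circulating-type set was the larger on day 5 and the smaller on day 14 in both libraries of each day. After thinning to 1000 UMIs the sets held 1, 1, 18 and 31 and 24, 16, 13 and 4 cells, in the same order. Cells with neither kind of marker were the most common, at 65, 75, 169 and 160, and 1, 0, 3 and 6 cells had both.

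Among all 465 day 14 NK cells, 16 held both Gzmc and Itga1, where 7.14 would be met if the genes were independent. No cell held both Gzmc and S1pr5, where 2.01 would be met. Gzmc and Eomes met in 23 cells against 30.3. Gzmc and Itgam met in 4 cells against 4.96. Itga1 met Itgam in 6 cells against 3.08, and S1pr5 in 1 cell against 1.26. In cells thinned to 1000 UMIs these counts were, in the same sequence, 3 against 1.33, 0 against 0.313, 6 against 7.96, 0 against 0.946, 1 against 0.455 and 0 against 0.159. They are too few to read an order from. These counts pool 2 libraries of different depth and are given without a test. An Eomes UMI was seen in 11 of 37 and 22 of 54 tissue-type cells, in 7 of 25 and 6 of 11 circulating-type cells and in 74 of 169 and 71 of 160 cells with neither. Eomes was therefore detected in every set.

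The sets could be compared in full only on day 14, where each held at least 10 cells, with the library as a block, which leaves 1 residual degree of freedom. Of 1325 genes 5 passed edgeR's test (0.377%), 2 higher (0.151%) and 3 lower (0.226%) in the tissue-type set, and 2 of the 5, Gzmc and Itgam, had formed the sets. Hist1h2ap, a histone gene of dividing cells, was at 1438 and 289 CPM in the tissue-type set and 23.5 and 35.3 in the circulating-type set, a log2 difference of 5.02 ± 0.61 (edgeR adjusted p = 0.0358). Cd74, the MHC class II chaperone, was at 1020 and 1612 against 2931 and 8300 CPM (-2.0 ± 0.22, adjusted p = 0.0289), and the nuclear RNA Malat1 at 26733 and 22175 against 45869 and 34543 (-0.71 ± 0.07, adjusted p = 0.0233). The tissue-type cells were deeper, with a median of 3309 and 4106.5 UMIs against 1903 and 2919. With sets of any size over all 4 libraries, Hist1h2ap (2.13, adjusted p = 0.477) and Cd74 (-1.29, 0.564) no longer passed, and Malat1 did.

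Cd74 in NK cells is not an NK gene in any list used here. Its level in all NK cells was 2889, 5891, 1341 and 1947 CPM, and it was 20468, 19514, 25614 and 21513 CPM in B cells. Its part as RNA from other cells was not tested. Other genes described in the Gzmc-high cells did not pass, among them Gzma with a log2 difference of -1.03 (edgeR adjusted p = 0.12), Klra4 with -1.56 (0.12), Xcl1 with 1.32 (0.176) and Ccl5 with -1.21 (0.39). The Gzmc-high cells are part of the tissue-type set, except for 3 of 16 in day 14 replicate 2 that held an Itgam UMI.

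Within the circulating-type set the days still differed. Of 678 genes 71 (10.5%) passed edgeR's test between the days, 50 higher (7.37%) and 21 lower (3.1%) on day 14. In simulated data this comparison made a larger share of false calls than its threshold allows. The count was 42 genes with day 5 replicate 2 left out and 117 with day 14 replicate 1 left out. Gzma was at 20177, 15967, 5637 and 3513 CPM within the set and fell by 1.97 ± 0.26 on the log2 scale (adjusted p = 0.000328). Prf1 was at 1352, 1418, 432 and 289 CPM (-1.88 ± 0.35, adjusted p = 0.00435), and Ccl5 at 37275, 27718, 12514 and 4463 CPM (-1.92 ± 0.37, adjusted p = 0.00505). The lower effector levels of day 14 were thus also seen among cells selected for S1pr5 or Itgam.

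Genes of the immature list rose within the circulating-type set too. Xcl1 was at 374, 187, 1915 and 909 CPM (2.26 ± 0.44, edgeR adjusted p = 0.00582) and Ltb at 20.8, 112, 378 and 620 CPM (3.07 ± 0.57, adjusted p = 0.00435). Ctla2a rose by 1.72 ± 0.36 (adjusted p = 0.00742), Thy1 by 1.55 (0.0411) and Emb by 1.43 (0.0362). With 1 library left out, the call of Thy1 was lost in all 4 fits, that of Emb in 3, without either day 5 library or day 14 replicate 1, and that of Ltb in 3, without day 5 replicate 1 or either day 14 library (adjusted p 0.0845 to 0.38), whereas Xcl1 and Ctla2a passed in all 4. Cma1 had 333 and 671 CPM on day 5 and no UMI among the 25 and 11 set cells of day 14. The tissue-type set held too few day 5 cells for the same comparison, so a difference between the sets in their change over time was not tested.

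Among NK receptors 20 of 24 genes could be tested, none rose and 3 fell, where 2.51% of all genes fell. The median was -0.16. Besides Klrg1 the receptor genes that fell were the Ly49 receptor genes Klra9, at 472, 513, 279 and 238 CPM (-0.93 ± 0.20, edgeR adjusted p = 0.000136), and Klra3, at 233, 263, 138 and 150 CPM (-0.78 ± 0.23, adjusted p = 0.0141). Of the 3' windows of Klra9 11.8% also occur in Klra10, Klra3 or Klra8, and 4.85% of those of Klra3 do in other genes, so their reads could have been split. The call of Klra3 was lost without day 5 replicate 1 (adjusted p = 0.185) and replicate 2 (0.351), and that of Klra9 without replicate 2 (0.0637). The CD94 gene Klrd1 was at 1214, 1051, 1144 and 1112 CPM with a log2 change of -0.01, and Klrk1, Tyrobp and Fcer1g did not pass either.

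Secreted signals changed strongly. Of 11 chemokine and cytokine genes 7 could be tested, 4 fell and 2 rose, with a median of -1.15. Over all genes 2.51% fell and 4.58% rose. Ccl5, the most abundant chemokine, was at 22960, 15846, 6180 and 3974 CPM and fell by 1.94 ± 0.12 on the log2 scale (edgeR adjusted p = 6.67e-40). Ccl4 was at 2391, 1803, 580 and 737 CPM (-1.67 ± 0.16, adjusted p = 4.78e-20) and Ccl3 at 835, 1039, 331 and 144 CPM (-2.0 ± 0.19, adjusted p = 5.67e-19). Both chemokines are also made by microglia, and a part of microglial RNA in their levels was not tested. All 3 were higher in both day 5 libraries than in either day 14 library, where 45.1% of all genes separated in one direction or the other.

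Ifng, the defining NK cytokine, was at 176, 183, 98.6 and 65.9 CPM (-1.15 ± 0.27, edgeR adjusted p = 0.000824). Tgfb1 was at 265, 251, 374 and 448 CPM and rose by 0.68 ± 0.21 (adjusted p = 0.0235). Xcl1 rose, as above. Without day 5 replicate 1 the adjusted p was 0.0567 for Ifng and 0.313 for Tgfb1, and without replicate 2 it was 0.0508 and 0.38. Tgfb1 was also lost without day 14 replicate 2 (0.136).

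Homing and exit receptors gave 16 testable genes of 18, with 4 that fell, 1 that rose and a median of 0.14. Over all genes 2.51% fell and 4.58% rose. S1pr5 and Cx3cr1 are described above. Itgb2, the beta chain that pairs with CD11b and LFA-1, was at 529, 367, 188 and 227 CPM (-1.11 ± 0.20, edgeR adjusted p = 5.71e-06), and Itga4, the chain of VLA-4, at 182, 171, 117 and 79.6 CPM (-0.87 ± 0.26, adjusted p = 0.0177). Ccr2 did not pass. The call of Itgb2 was lost without day 5 replicate 1 (adjusted p = 0.178), and that of Itga4 without either day 5 library or day 14 replicate 2 (0.164 to 0.346).

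Among 13 testable genes of cytokine receptors and their feedback, 2 fell and 1 rose, where 2.51% of all genes fell and 4.58% rose. Il18rap, a chain of the IL-18 receptor, fell by 1.06 ± 0.32 (edgeR adjusted p = 0.018), Ifngr1 fell by 0.55 ± 0.16 (adjusted p = 0.0176), and Cish, a brake on IL-15 signalling, was at 0, 18.3, 31.6 and 48.1 CPM (2.23 ± 0.70, adjusted p = 0.0249). The list's median was 0.32. Without day 5 replicate 1 none of the 3 passed (adjusted p 0.142 to 0.8). Ifngr1 was lost without any 1 library, and Il18rap also without day 14 replicate 2 (0.434). Among 15 testable transcription factors, Tcf7 rose and Klf2 and Zeb2 fell, beside the same shares of all genes, with a median of -0.08. Id2, Nfil3, Gata3 and Runx3 did not pass.

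Of 8 inhibitory genes 4 could be tested. Entpd1, the ectoenzyme CD39, was at 25.9, 42.8, 5.58 and 1.37 CPM (-3.29 ± 0.78, edgeR adjusted p = 0.00106), and Cd96 at 10.4, 30.6, 63.2 and 59.0 CPM (1.62 ± 0.53, adjusted p = 0.0365). Entpd1 is also a microglial gene, and the microglial sum in NK cells was lower on day 14 too. A part of microglial RNA in the Entpd1 level was not tested. The call of Cd96 was lost without day 5 replicate 1 or either day 14 library (adjusted p 0.331 to 0.619). Lag3 and Klrc1 did not pass, and the median of the 4 was -0.08.

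Interferon-stimulated genes rose as a block. All 14 that could be tested of 16 listed rose, by 1.02 to 2.87 on the log2 scale, where 4.58% of all genes rose. The median was 1.62 where T cells had 0.86 and B cells 0.53. Irf7, the factor that amplifies type I interferon, was at 72.6, 79.4, 229 and 265 CPM (1.71 ± 0.28, edgeR adjusted p = 3.28e-07). Isg15, a ubiquitin-like modifier, was at 72.6, 30.6, 177 and 239 CPM (1.97 ± 0.31, adjusted p = 8.84e-08), and Isg20 at 5.19, 24.4, 80.0 and 125 CPM (2.87 ± 0.51, adjusted p = 2.5e-06). Ly6e, at 498, 581, 1172 and 1350 CPM, rose by 1.23 ± 0.17 (adjusted p = 1.24e-09). Irf7 missed the threshold after thinning (adjusted p = 0.159). In every one of the 14 both day 14 libraries lay above both day 5 libraries, a separation that 45.1% of all genes showed in one direction or the other.

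T cells numbered 50 and 52 in the day 5 libraries. In simulated data the NK against T cell test recovered 11.5% of genes changed by 1 on the log2 scale and 30.9% by 2. None of the 14 passed this test of whether the day change differed between NK and T cells, which says little of a shared change. The count moved with the settings: DESeq2 called 4 of the 14 and gave 7 no adjusted p, with cells thinned to 1000 UMIs 8 could be tested and 3 rose, without cells of more than 2 times the median UMIs 7 of 12 rose, and without day 5 replicate 2 8 of 16 rose, in each case with none lower.

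Cell division genes gave 11 testable of 12 with 0 calls by edgeR (2 at an unadjusted p below 0.05, and 0 by DESeq2) and a median of -0.05. Top2a was at 98.5, 48.9, 57.7 and 85.1 CPM. Of 11 testable immediate early and heat shock genes, which respond to handling, only Ier2 passed, as lower, where 2.51% of all genes fell. Ier2 was at 804, 880, 558 and 497 CPM (-0.67 ± 0.18, edgeR adjusted p = 0.00382), and the list's median was -0.09. Among the remaining genes with the lowest fold changes, Borcs7, a lysosome positioning subunit, was at 171, 85.6, 31.6 and 24.7 CPM (-2.23 ± 0.37, adjusted p = 3.28e-07), and Klf3, a factor related to Klf2, at 130, 116, 42.8 and 20.6 CPM (-2.01 ± 0.37, adjusted p = 5.49e-06). S100a8, a neutrophil gene, was at 228, 73.3, 46.5 and 26.1 CPM (-2.14 ± 0.34, adjusted p = 8.4e-08). It fell in B cells too, by 2.87 ± 0.41, and the neutrophil marker sum in NK cells was 374, 169, 72.5 and 55.4 CPM. A part of neutrophil RNA in the S100a8 level was not tested. Without day 5 replicate 1 the adjusted p was 0.447 for S100a8, 0.0726 for Borcs7 and 0.139 for Ier2, and Ier2 was also lost without day 5 replicate 2 (0.283) and day 14 replicate 2 (0.0967).

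The change between days in NK cells was set against that in T cells of the same libraries by an interaction term. Of 5596 genes 37 passed (0.661%), 20 with a higher (0.357%) and 17 with a lower (0.304%) change in NK cells. The count was 19 without day 14 replicate 1. The test asks whether the change differs, not whether the cells do. Klf2 changed by -1.61 in NK cells and -0.02 in T cells, a difference of -1.67 ± 0.27 in the joint fit (edgeR adjusted p = 0.000625). Thy1 changed by 2.21 and 0.28, a difference of 1.91 ± 0.31 (adjusted p = 0.000807). Ly6c2, lower on day 14 in NK cells, was higher by 0.81 in T cells, a difference of -1.77 ± 0.21 (adjusted p = 1.04e-05). DESeq2 called 1 gene in this comparison, which was Ly6c2 (-1.76 ± 0.35, DESeq2 adjusted p = 0.00191), and it is named here for that reason, outside the rule for named genes.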

How the data were processed

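The authors deposited filtered UMI counts per gene and barcode for each library. Cell Ranger 3.0.1, Seurat 2.3.4 and the build GRCm38 (mm10) are named per the submitters' processing notes, and the day 14 headers give no software version. Cells were chosen by the rule given at the start, and the members, gene lists and sets were chosen with earlier results of these data known. Doublets were limited only by the lineage limits of the rule, with no doublet caller. NK counts were summed per library and tested with edgeR 4.0.16 (quasi-likelihood, TMM, filterByExpr, R 4.3.3) between days, with Benjamini-Hochberg adjustment over all genes tested at 0.05. NK against T cells was an interaction term. T cells (1120) carried at least 2 UMIs of the T cell genes and none of the 4 NK receptor genes of the rule. B cells numbered 375 and also held none of those receptor genes. DESeq2 1.42.0 was an alternative. Levels are CPM, the counts for each 1e+06 UMIs. Thinned shares are expected values, computed from each cell's UMIs as the chance of keeping at least 1 UMI of the gene among 1000, while thinned sums, sets and co-detection come from 1 draw with a fixed seed, and 2 against 2 libraries allow no permutation p below 0.33. Intervals cover counting error only.

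Named genes were the 5 subset genes, up to 4 per list and direction past the threshold, and the 8 highest and 8 lowest changes with a mean of at least 50 CPM on 1 day and no overlap between days. Members of the lists outside these are given as list members, and Cd74, Malat1, Hist1h2ap, Capg, Klra4 and Il2rb were named from the set comparison or after their values were seen. Each comparison was tested on simulated counts, where the comparison with T cells recovered the smallest share of changed genes, and it and the day comparison within the circulating-type set made a somewhat larger share of false calls than the threshold allows. Alternatives were DESeq2, other size factors, no count filter, a replicate block, each library left out, other phagocyte and NK limits, thinning and removal of deep cells. Barcodes of at least 1317 UMIs only, omission of ribosomal, Gm-numbered and pseudogene names, and sets of any size were added after seeing the data. Gene positions and 3' windows are from GENCODE M21 on GRCm38, promoters from RefSeq GRCm38.p6. Some members of the lists are counted in the totals but are not reported here by name.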

Additional observations from a re-analysis of the deposited data

Results flagged for a closer look

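For 9 of the named genes the change between days differed between NK and T cells by the interaction test of edgeR, and each difference is the NK change minus the T change on the log2 scale. The values were -1.67 for Klf2, -2.12 for Klrg1, 1.91 for Thy1, 1.30 for Emb, 1.51 for Ctla2a, -3.98 for Serpinb9, -0.96 for Ccl5, -1.14 for Ccl4 and -3.56 for S100a8. The adjusted p ran from 0.000544 for Ccl5 and S100a8 to 0.0318 for Klrg1, and DESeq2 called none of the 9.

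Ccl5 fell in NK cells by 1.94 and had a change of -1.02 in T cells, so the sign was shared and the size differed. Without day 14 replicate 2 its difference was -0.66 and no longer passed. Serpinb9 fell by 0.72 in NK cells and was at 3.25 ± 0.99 in T cells, and its call was lost without day 5 replicate 2. S100a8, the neutrophil gene, was at 1.38 ± 0.39 in T cells, and its call was lost without day 5 replicate 1, as was that of Emb. The call of Ccl4 was lost when either first replicate was left out, and the call of Klrg1 in all 4 such fits.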

How the results depend on the processing

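Of the 44 called genes named in the day comparison and followed through the alternatives, 24 passed in every alternative that gave a value, 20 were lost in 1 or more, and none changed sign. DESeq2 gave 31 of them an adjusted p and called 22. The count of 336 genes became 111 with DESeq2 (87 higher, 24 lower), 223 with a phagocyte limit of 1%, 168 after thinning, 155 with barcodes of at least 1317 UMIs and 125 to 293 with 1 library left out. Without ribosomal, Gm-numbered and pseudogene names it was 207 (104 higher, 103 lower, against 217 and 119). The cause was not tested. Without a count filter the median of all genes was 0.216 in place of 0.002.

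The comparison with T cells went from 37 genes to 1 with DESeq2 and 19 to 39 with 1 library left out. The contrast of sets went from 5 genes to 8 with sets of any size, and that alternative gave 2 to 17 with 1 library left out. The day comparison within the circulating-type set went from 71 to 23 with DESeq2 and 42 to 117 with 1 library left out. With the replicate block the day comparison gave 333 genes and lost Cd96 among named genes. The contrast of sets without it (no replicate block) gave 10. The replicate numbers were not shown to pair the samples, since the deviations of same-numbered libraries had a correlation of 0.0112.

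The difference in the share of cells with Eomes changed sign, from 0.779 to between -2.67 and 4.22 points with 1 library left out, being -2.67 without day 5 replicate 2 and -0.698 without day 14 replicate 1. The log2 change of Eomes turned from -0.04 to 0.062 without a filter, lay between -0.217 and 0.21 with 1 library left out, and was 0.090 without a phagocyte limit, 0.22 after thinning and 0.11 with barcodes of at least 1317 UMIs. The set by day interaction, the day comparison of the tissue-type set, the contrast of thinned sets and the day 14 contrast of sets with a library left out were not run, for want of cells or residual degrees of freedom.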
